A study of Mus musculus with 19 samples.

Results

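The chaperone and unfolded protein response genes of retinal microglia were followed from unlasered control eyes to day 3 of laser-induced choroidal neovascularization (CNV d3). They are 35 of the 27299 genes in the deposited table, taken by gene symbol. Of these, 23 act in or on the endoplasmic reticulum (ER), and 12 are heat shock genes that work outside it, 10 of them cytosolic and 2 mitochondrial. The heat shock genes were kept apart because they also respond to the enzymatic and mechanical dissociation of tissue. All 35 symbols were found once, and none was removed by a filter on low values. CNV is the growth of choroidal vessels under the retina, brought about here by 6 laser burns per eye. The control group had 6 samples from unlasered mice and the CNV d3 group 6 samples taken 3 days after the laser. All mice were C57BL/6J, aged 8 weeks per the labels, and the study's methods name Cx3cr1 GFP/+ animals, so control and lasered mice both carried the green fluorescent reporter in place of 1 Cx3cr1 allele. Microglia were sorted as CD45+CD11b+CX3CR1+Ly6C-Ly6G- cells, with low CD45 in the methods, and RNA of the sorted population was sequenced. The gate rests on surface proteins and on the reporter, and monocyte-derived cells that have lost Ly6C could pass it.

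Proteins that enter the secretory pathway fold in the ER with the help of chaperones such as BiP (*Hspa5*), the lectins calnexin and calreticulin, and disulfide isomerases. When unfolded proteins build up, 3 sensors of the ER membrane start the unfolded protein response. IRE1 (*Ern1*) splices the mRNA of the transcription factor XBP1, PERK (*Eif2ak3*) slows translation and raises ATF4 and then CHOP (*Ddit3*), and ATF6 is cut in the Golgi to free a transcription factor. XBP1 and ATF6 act on ER stress response elements (ERSE) in the promoters of chaperone genes. In the cytosol the heat shock factor HSF1 does the same through heat shock elements (HSE). Short-read counts per gene, as here, hold neither the splicing of *Xbp1* nor the cleavage of ATF6 nor the phosphorylation of PERK, so what follows is mRNA level.

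The promoters were searched for the elements through which these responses act. The genes were chosen for their place in these responses, so a share above that of all promoters is no independent result. RefSeq promoters (GRCm38.p6) of 250 bases before to 50 after each start site were found for 20 of the 23 ER genes, all but *Hyou1*, *Manf* and *Atf6*, and for 8 of the 12 heat shock genes, all but *Hspa8*, *Hsp90aa1*, *Hsp90ab1* and *Hsf1*. The ERSE was searched on both strands as CCAAT, any 9 bases, CCACG. It was in 7 of the 20 ER genes, *Hspa5*, *Hsp90b1*, *Calr*, *Canx*, *Dnajc3*, *Pdia6* and *Creld2*, in none of the 8 heat shock genes, and in 0.119% of all 32851 promoters. The 250 bases before the start site of the 4 with the highest level per exon length are printed with the ERSE in capitals. Where the capitals begin with CGTGG the element lies on the opposite strand, as in *Calr* and in the second element of *Hsp90b1*. The *Calr* stretch is chr8:84846932-84847181, minus strand, that of *Hspa5* chr2:34771840-34772089, plus strand, that of *Hsp90b1* chr10:86705445-86705694, minus strand, and that of *Canx* chr11:50325674-50325923, minus strand. The Gencode M21 models of *Hspa5* and *Hsp90b1* begin further upstream, at 34771970 and 86705509, inside the printed stretches.
Calr: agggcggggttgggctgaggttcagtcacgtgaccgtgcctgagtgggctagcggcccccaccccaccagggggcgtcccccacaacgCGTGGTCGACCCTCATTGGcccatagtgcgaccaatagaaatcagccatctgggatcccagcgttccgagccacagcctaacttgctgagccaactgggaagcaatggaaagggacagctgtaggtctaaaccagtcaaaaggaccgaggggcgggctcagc
Hspa5: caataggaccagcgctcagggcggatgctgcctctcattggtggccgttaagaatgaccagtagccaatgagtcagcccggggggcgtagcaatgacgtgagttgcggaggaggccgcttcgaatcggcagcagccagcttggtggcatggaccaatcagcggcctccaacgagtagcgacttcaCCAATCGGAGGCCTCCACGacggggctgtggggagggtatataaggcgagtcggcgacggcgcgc
Hsp90b1: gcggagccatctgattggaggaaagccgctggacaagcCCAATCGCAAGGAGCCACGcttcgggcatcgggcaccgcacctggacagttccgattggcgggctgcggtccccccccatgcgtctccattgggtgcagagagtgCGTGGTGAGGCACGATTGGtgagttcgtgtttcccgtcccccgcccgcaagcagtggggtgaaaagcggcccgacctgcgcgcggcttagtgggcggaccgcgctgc
Canx: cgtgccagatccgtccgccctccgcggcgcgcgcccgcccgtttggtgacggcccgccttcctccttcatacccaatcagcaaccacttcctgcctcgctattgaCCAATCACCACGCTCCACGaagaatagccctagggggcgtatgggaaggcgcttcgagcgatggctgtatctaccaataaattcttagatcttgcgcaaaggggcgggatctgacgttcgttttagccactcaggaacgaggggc

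Counting back from the first transcribed base, the ERSE of *Hspa5* lay at -65 to -47, the closest to the start site of the group, and the farther element of *Hsp90b1* at -212 to -194. *Hsp90b1* was the ER gene with 2 such elements. The shorter ERSE-II, ATTGG, any 1 base, CCACG, was in *Herpud1*, at -52 to -42, and in *Dnajb11*, at transcribed bases 8 to 18, and in 0.0365% of all promoters. They are shown because no other of the 20 matched ER genes held this form.
Herpud1, chr8:94386377-94386387: ATTGGGCCACG
Dnajb11, chr16:22857852-22857862: ATTGGCCCACG

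Neither of 2 further motifs was in any of the 28 matched genes: the XBP1 element TGACG followed by TGG, in 0.676% of all promoters, and the ATF4 element TGATG, any 1 base, AAT, in 0.965%. The HSE, searched as GAA, any 2 bases, TTC, any 2 bases, GAA and the form that starts with TTC, was in *Hsph1*, *Hspd1* and *Hspe1*, in none of the 20 ER genes, and in 0.603% of promoters. *Hspd1* and *Hspe1* lie head to head on chromosome 1 and their promoter windows overlap, so the elements found for both are the same bases read in opposite directions. The pair of overlapping elements on the *Hspd1* strand is shown with the one of *Hsph1*, which lies past the start site. A match is a run of letters, and no binding was measured. Only exact matches inside the window were counted. A promoter without one, such as that of *Dnajb1* for the HSE, may hold a variant form.
Hspd1, chr1:55088064-55088076: TTCCGGAAGGTTC
Hspd1, chr1:55088059-55088071: GAAGGTTCTAGAA
Hsph1, chr5:149636288-149636300: TTCTGGAAAGTTC

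The samples held 10963178 to 22335233 reads on genes in control and 23532260 to 29523018 in CNV d3, with 15076 to 17224 and 18276 to 19116 genes detected. The CNV d3 libraries were deeper, and their median correlation with the rest of their group was 0.937 to 0.949 against 0.825 to 0.868 in control. Microglial markers were high in every sample, and their summed level was 1268940 to 1455050 normalized counts in control and 691843 to 1048500 in CNV d3, with 7 of 10 lower. Of 10 monocyte markers 5 were higher, with sums of 224 to 704 and 1206 to 4407, and the defining *Ly6c2* and *Chil3* were at 0 in all controls. All 8 markers of dividing cells were higher, with sums of 97.4 to 951 and 8520 to 21363. The sums of other cell types were 751 to 7156 and 629 to 13158 for rods, 6987 to 9839 and 5248 to 7740 for Mueller glia and astrocytes, 521 to 990 and 477 to 965 for endothelium, 2.15 to 196 and 54.0 to 278 for retinal pigment epithelium, at most 22.3 for neutrophils, at most 29.3 for T and NK cells and 12471 to 14925 and 10145 to 14891 for B and plasma cells, where *Ighm* held most of it. The calls among these were 2 higher and 1 lower of 8 Mueller glia markers and 1 and 1 of 6 for endothelium. No call was made for the others in the limma fit, where at an unadjusted p under 0.05 there was 1 for rods, 1 for pigment epithelium and 0 for the rest, and edgeR and DESeq2 each called 1 rod marker. In bulk samples fewer cells of a type and less RNA per cell cannot be told apart, and the part of the monocyte and dividing cell markers in the results was not tested.

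Across the 35 genes, 11 passed limma's test with Benjamini-Hochberg adjustment over all genes at 0.05, and they went both ways. Higher in CNV d3 were 6: *Hspa5*, *Hsp90b1*, *Calr*, *Pdia3*, *Hsp90aa1* and *Hspd1*. Lower were 5: *Dnajb9*, *Herpud1*, *Xbp1*, *Atf4* and *Dnajb1*. Of all 27299 genes, 8.29% were called higher and 4.57% lower. Most of those genes are hardly expressed, whereas 30 of the 35 had a mean of at least 500 normalized counts, as did all 11 that passed. Among the 6202 genes of that level 18.6% were higher and 12.7% lower, and the 6 and 5 of 30 read against these shares are close to the background.  The changes were small: the 11 differences were 0.18 to 0.65 in absolute log2, and none of the 35 had both an adjusted p under 0.05 and a fold above 1.5 in log2, the pair that the study asked of its differentially expressed genes and that 4.99% of all genes met. *Trib3* (1.89), *Hspa1a* (1.81) and *Hspb1* (1.59), all of low level, exceeded the fold in limma, *Hspb1* alone of them with an unadjusted p under 0.05, and edgeR, DESeq2 and limma voom gave 0 genes with both. The values of the 2 groups did not overlap in 6 of the 35 genes and in 2038 of all 27299. Of all genes 16543 had a mean under 50 normalized counts, so these 2 counts are not compared.

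**Figure D1:**
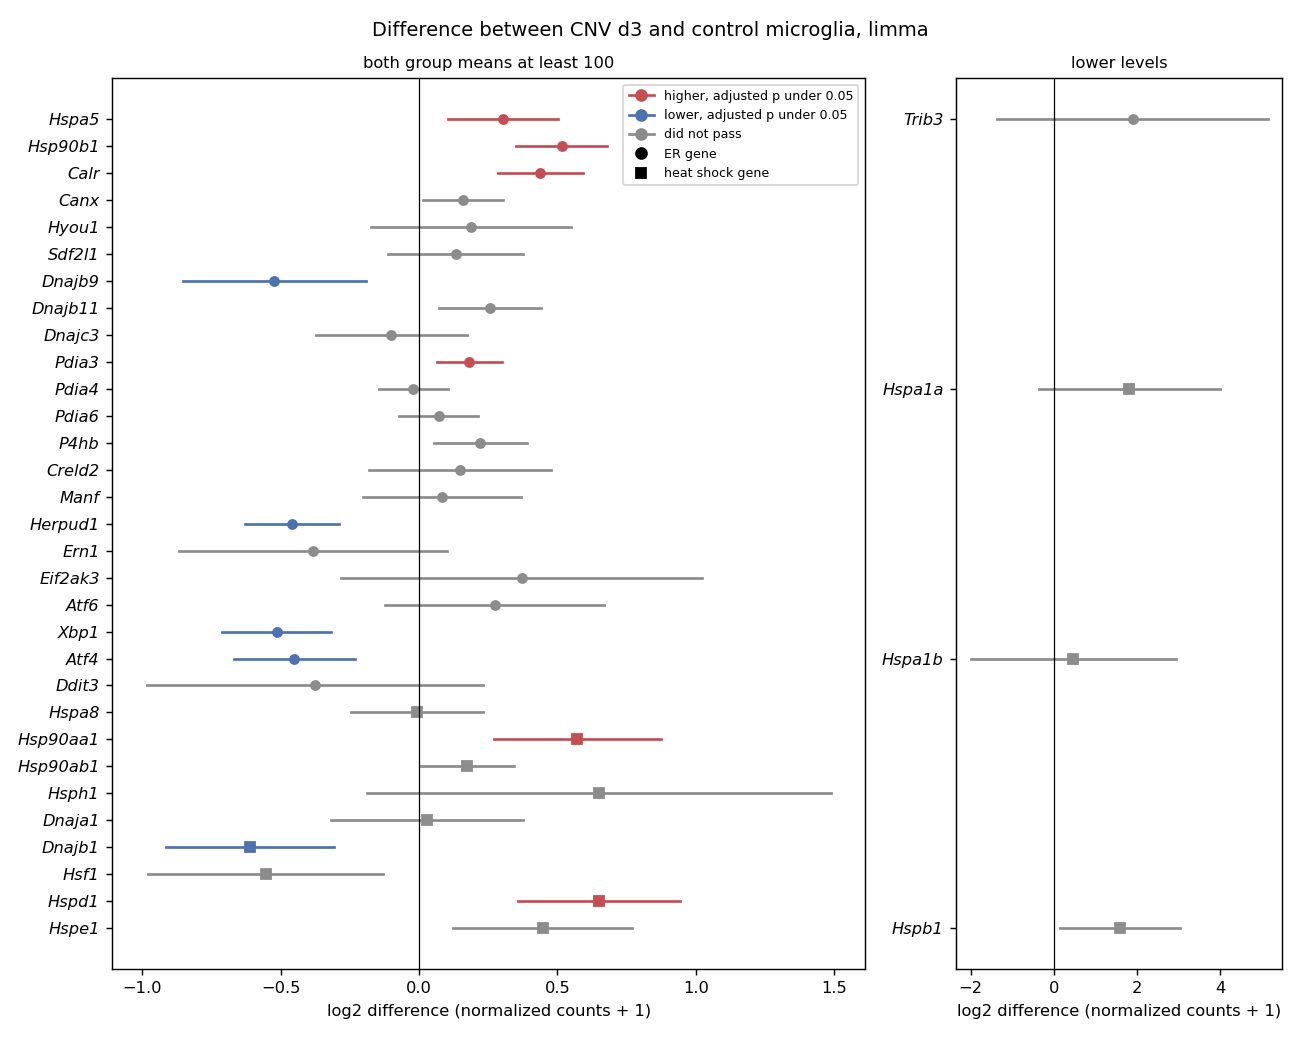
log2 difference of each gene, CNV d3 minus control, on normalized counts plus 1, with 95% confidence intervals from limma over 6 samples a group. Circles are ER genes and squares heat shock genes, red and blue mark an adjusted p under 0.05, and the 4 genes of low level have a panel and an axis of their own. Intervals that exclude 0 in grey passed before the adjustment only.

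Among the ER chaperones, 3 of 9 rose and 1 fell. All 9 had a mean of at least 500 normalized counts, a level at which 18.6% of all genes were higher and 12.7% lower. With 9 genes the counts are no result about the group. *Hsp90b1* (GRP94, the HSP90 of the ER lumen, chr10:86690209-86705509, minus strand) had 19032, 20611 and 22117 normalized counts as its lowest, median and highest control values and 24859, 30786 and 32585 in CNV d3. Every CNV d3 sample lay above every control. The means were 20669 ± 1318 and 29634 ± 3159 (SD, n = 6), a log2 difference of 0.52 with SE 0.08 and limma adjusted p = 0.000506. *Calr* (calreticulin, the soluble lectin chaperone that also buffers calcium, chr8:84841850-84846934, minus strand) ranged from 17047 over a median of 19831 to 20698 in control and from 24220 over 25906 to 30840 in CNV d3. Its groups did not overlap either, and CNV d3 replicate 3 stood above the others. The difference was 0.44 with SE 0.07 (limma adjusted p = 0.00100). *Hspa5* (BiP, the HSP70 of the ER and the protein that keeps the sensors inactive, chr2:34771970-34777547) had 25044, 29199 and 32004 in control and 30975, 34281 and 45359 in CNV d3. The groups overlapped, and CNV d3 replicate 3, at 45359, was well above the rest. Its difference of 0.30 with SE 0.09 just passed (limma adjusted p = 0.0453). The call for *Hspa5* was lost in 11 of 12 fits that left out 1 sample, all but the one without control replicate 3, with differences of 0.23 to 0.34 and adjusted p of 0.0531 to 0.118 in those 11.

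*Canx*, the membrane-bound lectin chaperone beside calreticulin, had 20330 ± 1485 in control and 22695 ± 1560 in CNV d3 and did not pass (0.16, limma adjusted p = 0.154). The groups overlapped between 20461 and 22727. *Dnajb11*, a J-domain cochaperone of BiP and the holder of an ERSE-II, had 4162 ± 423 and 4964 ± 362 and stayed just outside (0.26, SE 0.09, adjusted p = 0.0663). It passed in 8 of 24 alternative fits, among them those without control replicate 5 (0.30, adjusted p = 0.0212) and without CNV d3 replicate 5 (0.29, adjusted p = 0.0394). *Hyou1* (0.19), *Sdf2l1* (0.13) and *Dnajc3* (-0.10), further chaperones and cochaperones of BiP, did not pass, with intervals that reached to either side of 0.

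*Dnajb9* (ERdj4, a cochaperone of BiP whose gene is a target of XBP1, chr12:44205559-44210326, minus strand) went the other way. It had 880, 1374 and 1462 in control and 738, 840 and 1192 in CNV d3. Control replicate 2, at 880, lay among the CNV d3 values, and the other 5 controls were above all of them. The difference was -0.52 with SE 0.16 (limma adjusted p = 0.0380). Without control replicate 2 it was -0.63 with adjusted p = 0.00762, and in 9 of the 12 fits that left out 1 sample, those without control replicates 1, 3, 4, 5 and 6 or CNV d3 replicates 2, 3, 4 and 6, the call was lost with adjusted p of 0.0655 to 0.0880.

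The disulfide isomerases hardly moved. *Pdia3* (ERp57, which works with calnexin and calreticulin, chr2:121413775-121438687) was the gene with the highest level per exon length of the 35, at 13632 normalized counts per 1000 exon bases in control and 15474 in CNV d3. It ran from 41470 over 42143 to 46452 in control and from 46214 over 47233 to 53208 in CNV d3. Only control replicate 5, at 46452, reached into the CNV d3 range. The difference was 0.18 with SE 0.06 (limma adjusted p = 0.0434), and the call was lost without control replicate 1, 2, 4 or 6 or CNV d3 replicate 5, with differences of 0.17 to 0.18 and adjusted p of 0.0532 to 0.0643. *Pdia4*, which has more than 1 active thioredoxin-like domain, had 9803 ± 280 and 9668 ± 385, and its interval of -0.15 to 0.11 was among the narrowest of the group. *Pdia6* differed by 0.07 and *P4hb*, the classical isomerase PDI, by 0.22 (adjusted p = 0.0825, or 0.0352 without control replicate 6, where the difference was 0.26). Only *Pdia3* of the 4 passed.

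**Figure D2:**
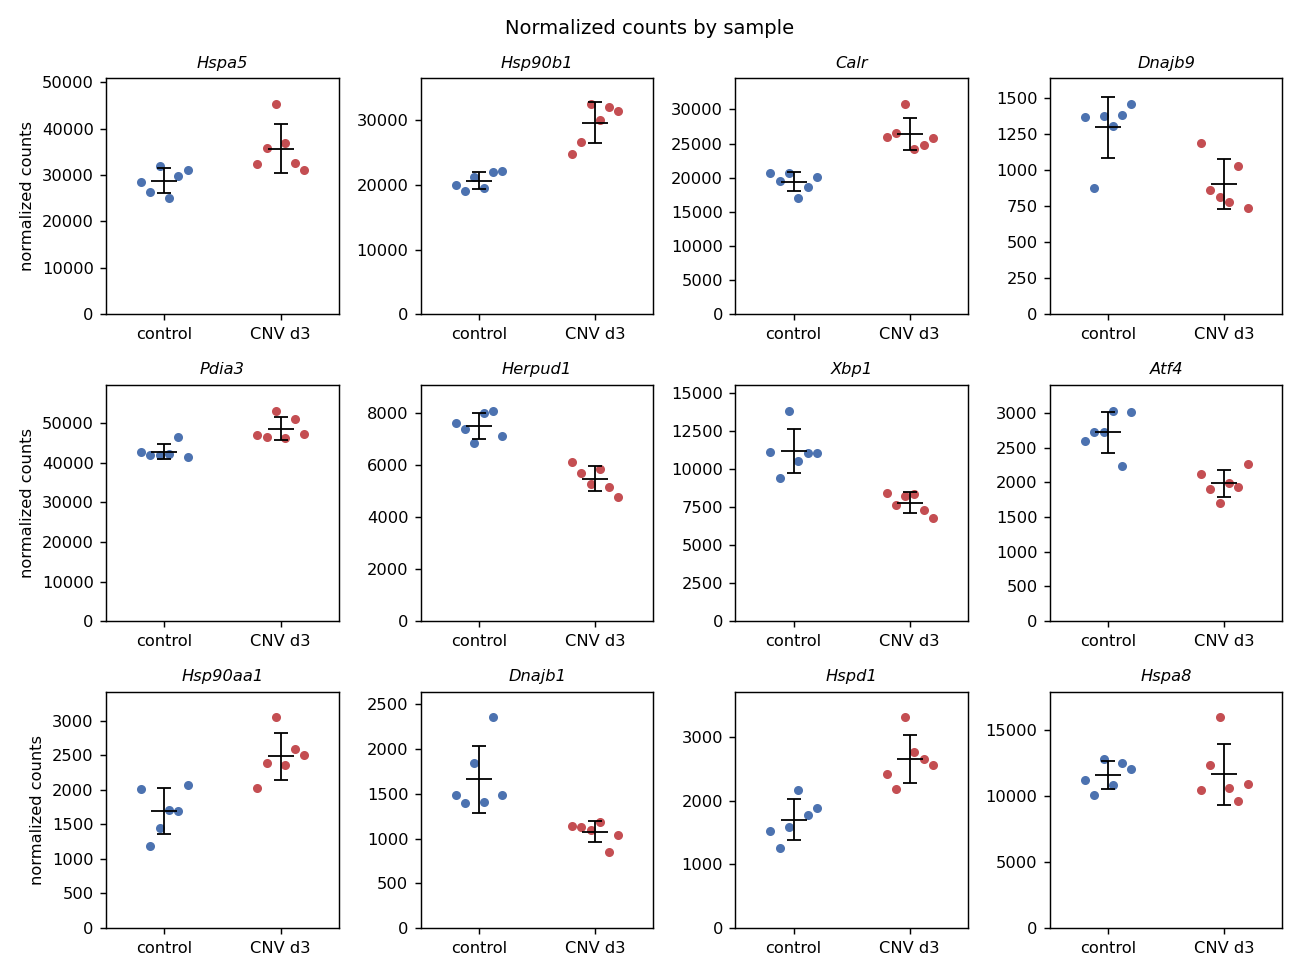
Normalized counts by sample for the 11 genes that passed and for *Hspa8*, each panel from 0, with control in blue and CNV d3 in red and bars for the mean and SD of 6 samples. *Hsp90b1*, *Calr* and *Hspd1* have no overlap upward and *Herpud1*, *Xbp1* and *Dnajb1* none downward. Of the 35 genes 6 had no overlap, and of all 27299, hardly expressed ones included, 2038.

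Of 3 other targets of the response, *Herpud1* fell. *Herpud1* (an ER membrane protein of ER-associated degradation, chr8:94386438-94395377) had 6854, 7500 and 8109 in control and 4780, 5486 and 6109 in CNV d3, without overlap. The means were 7520 ± 492 and 5484 ± 493 (SD, n = 6), and the difference was -0.46 with SE 0.08 (limma adjusted p = 0.00142). It holds the first of the ERSE-II sites printed above. *Creld2* (0.15) and *Manf* (0.08), which are secreted or retained ER proteins induced by ER stress, did not pass.

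Sensors and transcription factors gave 0 higher and 2 lower of 7 in the limma fit, at an unadjusted p also 0 higher, and edgeR, DESeq2 and limma voom each gave 0 higher and 2 lower. Of the 5 with a mean of at least 500 normalized counts 0 were higher and 2 lower. Among all genes of that level 18.6% were higher and 12.7% lower, and a count of 2 genes is no result about the group. *Xbp1* (chr11:5520659-5525893) fell from 9418, 11024 and 13836 as the lowest, median and highest to 6761, 7941 and 8412. No value was shared between the groups. The means were 11165 ± 1456 and 7784 ± 672, a difference of -0.52 with SE 0.09 (limma adjusted p = 0.00173). *Atf4* (chr15:80255184-80257541) had 2237, 2723 and 3036 in control and 1707, 1960 and 2267 in CNV d3. The lowest control lay just under the highest CNV d3 value, and the rest were apart. Its difference was -0.45 with SE 0.10 (limma adjusted p = 0.00856).

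The sensors did not pass in either direction. *Ern1* had 702 ± 271 and 512 ± 77.5 (-0.38, adjusted p = 0.330), *Eif2ak3* 957 ± 358 and 1140 ± 226 (0.37, adjusted p = 0.514), and *Atf6* 2751 ± 793 and 3229 ± 507 (0.27, adjusted p = 0.403), by limma. Their control samples scattered, from 283 to 1334 for *Eif2ak3*, and the intervals were wide, at -0.87 to 0.10 for *Ern1*, -0.28 to 1.02 for *Eif2ak3* and -0.12 to 0.67 for *Atf6*. *Ddit3*, which codes for the proapoptotic factor CHOP, had 312 ± 117 and 234 ± 67.9 (-0.38, adjusted p = 0.457). *Trib3*, a target of CHOP and ATF4, was listed at 0 in 3 control samples and 1 CNV d3 sample and reached 129 in control replicate 3 and 246 in CNV d3 replicate 6. At that level no difference was detectable. The median log2 difference of the 7 was -0.38, beside 0.15 over all genes and 0.15 over the 23 ER genes. Among genes with a mean of at least 500 normalized counts it was -0.38 for the 5 of this group and 0.058 for all 6202.

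**Figure D3:**
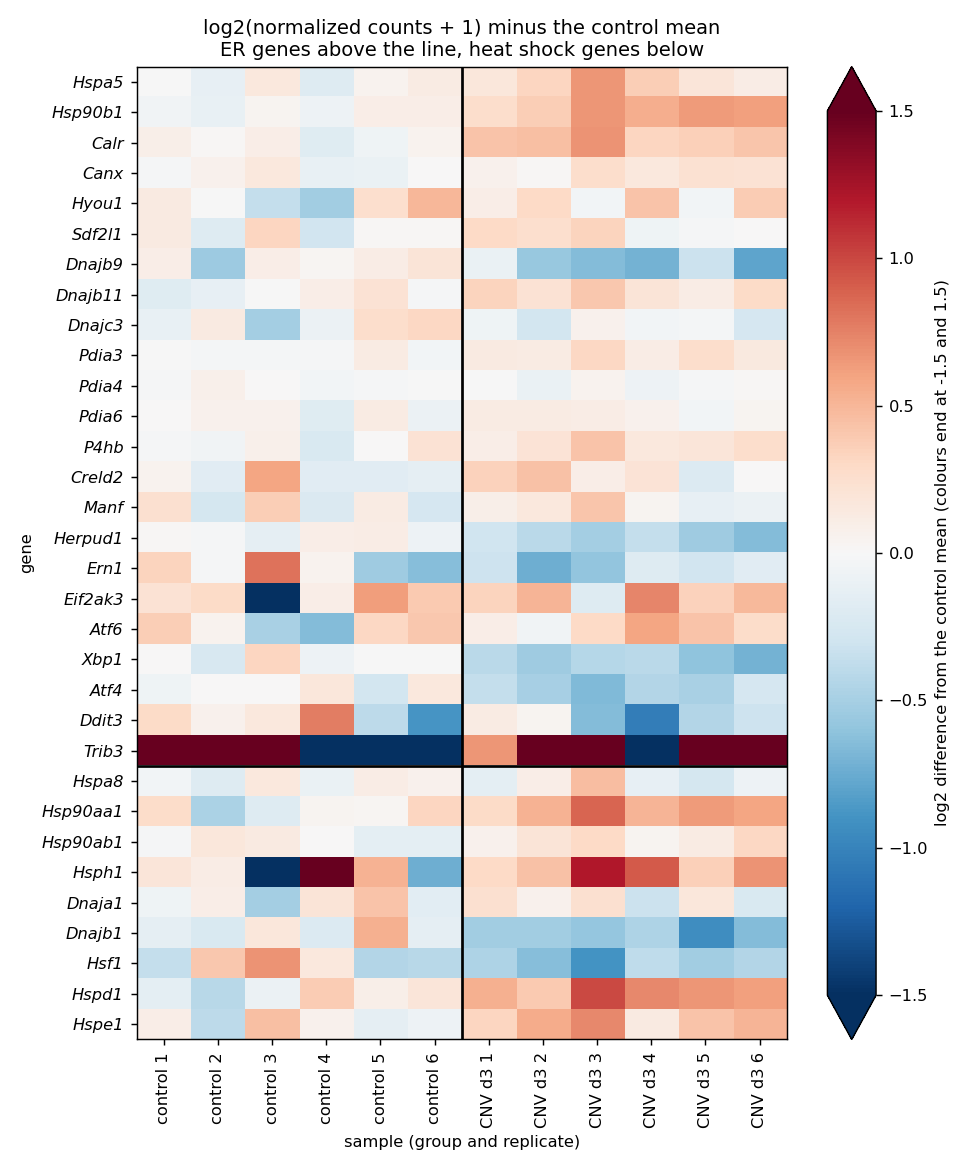
log2(normalized counts + 1) of each sample minus the control mean, for the 32 genes with a mean of at least 50, with the 6 control samples left of the line and the 6 CNV d3 samples right of it. *Xbp1* and *Herpud1* are blue and *Hsp90b1* and *Calr* red in all 6 CNV d3 samples, and CNV d3 replicate 3 is the highest of its group in 11 of the 23 ER genes.

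The ER genes together took 0.934 to 1.05% of the reads in control and 1.10 to 1.33% in CNV d3, with medians of 1.02 and 1.15%. The ranges did not overlap, and the most abundant chaperones dominate the sum. The heat shock genes took 0.143 to 0.156% and 0.147 to 0.201%, which overlapped. CNV d3 replicate 3 was the top of its group in both sums. It was the highest of its group in 11 of the 23 ER genes and in 6 of the 9 heat shock genes with a mean of at least 50. This library also had the lowest summed level of microglial markers, 691843, and the highest of monocyte markers, 4407. Control replicate 4, the lowest of its group in 10 of 23 ER genes, and control replicate 3, the highest in 9, mark the ends of the control spread.

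By level per exon length, the ER chaperones and isomerases led. In control *P4hb* and *Hspa5*, both at 6814 normalized counts per 1000 exon bases, *Calr* at 6749, *Hsp90b1* at 5126, *Canx* at 4332 and *Pdia4* at 4086 followed *Pdia3*. *Hsp90ab1*, at 4050, was the highest heat shock gene. In CNV d3 *Calr*, at 9155, *Hspa5*, at 8444, and *P4hb*, at 7928, stood next to *Pdia3*, and *Xbp1* went from 3438 to 2397. *P4hb*, *Hspa5* and *Calr* were within 1 SD of each other in control. The sensors were low, with *Atf6* at 298, *Eif2ak3* at 159 and *Ern1* at 85.8 in control.

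**Figure D4:**
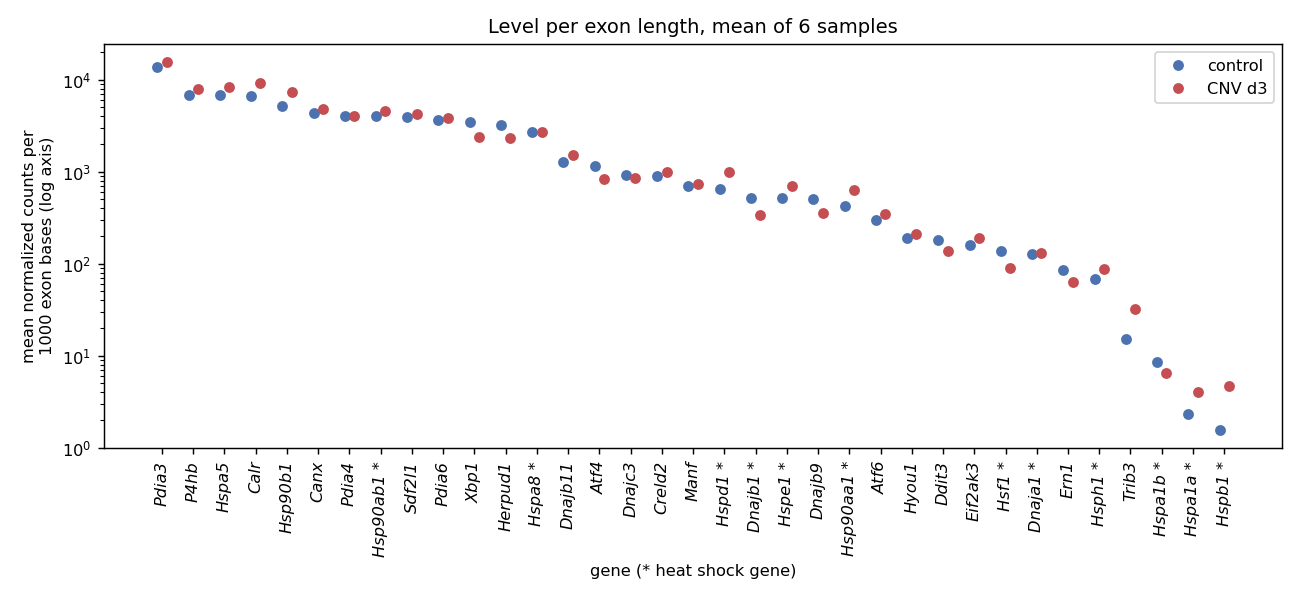
Mean normalized counts per 1000 exon bases of the 35 genes on a log axis, ordered by the control level, control in blue and CNV d3 in red, heat shock genes marked with an asterisk. *Pdia3* is highest in both groups, and *Hspa1a* and *Hspb1* are lowest.

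Of the heat shock genes *Hspa1a*, *Hspa1b* and *Hspb1* were near the floor. *Hspa1a* (HSP70, chr17:34969190-34972156, minus strand) was listed at 0 in 4 control samples and at 19.2 and 22.5 in the other controls, while CNV d3 ran from 3.32 over 8.02 to 38.5. *Hspa1b*, its near copy, ran from 0 over 22.1 to 56.8 and from 4.005 over 17.1 to 38.5. *Hspb1* (HSP27) reached 8.59 in control and 9.61 in CNV d3. None of the 3 passed, although *Hspb1* did without control replicate 1 (2.10, limma adjusted p = 0.0144). Reads that fit more than 1 place were not counted, and 66.3% of the 50-base stretches of *Hspa1a* and 62.3% of those of *Hspa1b* occur in another gene. Their counts may understate their level for that reason, in both groups alike.

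The constitutive cytosolic chaperones were abundant and mostly level. *Hspa8* (HSC70) had 11550 ± 1046 and 11614 ± 2288, a difference of -0.01 with an interval of -0.25 to 0.23, whose sign turns with the scaling. *Hsp90ab1* differed by 0.17 (adjusted p = 0.178) and *Dnaja1*, an HSP40 cochaperone, by 0.03 (adjusted p = 0.921) in limma. *Hsp90aa1* (the stress-inducible cytosolic HSP90, chr12:110690605-110702728, minus strand) rose from 1193, 1703 and 2075 to 2021, 2445 and 3050. The highest control passed the lowest CNV d3 sample by a little. The difference was 0.57 with SE 0.14 (limma adjusted p = 0.0145).

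*Dnajb1* (HSP40, the classical target of HSF1 that feeds clients to HSP70, chr8:83608193-83612653) fell. Its control values were 1396, 1485 and 2356 and those in CNV d3 854, 1114 and 1181, without overlap. The difference was -0.61 with SE 0.14 (limma adjusted p = 0.0102). *Hsf1* itself had 986 ± 335 and 645 ± 79.2 and did not pass (-0.55, adjusted p = 0.0851). *Hsph1* (HSP110), with an HSE past its start site, ran from 133 to 1125 in control and from 494 to 922 in CNV d3 and did not pass (0.65, SE 0.39, adjusted p = 0.341).

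*Hspd1* and *Hspe1*, HSP60 and HSP10 of the mitochondrial matrix, share the HSE printed above. *Hspd1* (chr1:55077835-55088243, minus strand) had 1250, 1681 and 2175 in control and 2193, 2611 and 3312 in CNV d3. The groups met without overlap. Its difference of 0.65 with SE 0.14 was the greatest of the 11 that passed (limma adjusted p = 0.00535). *Hspe1* (chr1:55088132-55091307) moved from 762 ± 153 to 1030 ± 141, and its difference of 0.45 with SE 0.15 stayed outside (adjusted p = 0.0675). It passed without control replicate 3 (0.54, adjusted p = 0.0149) and without CNV d3 replicate 4 (0.51, adjusted p = 0.0390).

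How far reads could be assigned differed between the arms. At least 20% of the 50-base stretches were shared with another gene for 8 of the 12 heat shock genes and for none of the 23 ER genes, whose maximum was 9.76% for *Hsp90b1*. *Hsp90aa1* had 47.5%, *Hspd1* 42.1%, *Hspa8* 39.4% and *Hspe1* 22.8%, and for *Hspa8*, *Hsp90aa1* and *Hspd1* the gene they shared most with was a processed pseudogene. The exons of *Hspd1* and *Hspe1* also overlap each other, and reads on exons of several genes were not counted. Among ER genes, exons of *Hsp90b1*, *Manf* and *Ddit3* overlap those of 3 other annotated genes each. Those of *Dnajb9*, *Pdia3*, *Pdia4*, *Pdia6* and *Eif2ak3* overlap 1 each. Of the other heat shock genes, *Hspa8* and *Dnaja1* overlap 3 each and *Hspa1a* 1. Levels of these genes are uncertain, and both groups were counted in the same way.

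**Figure D5:**
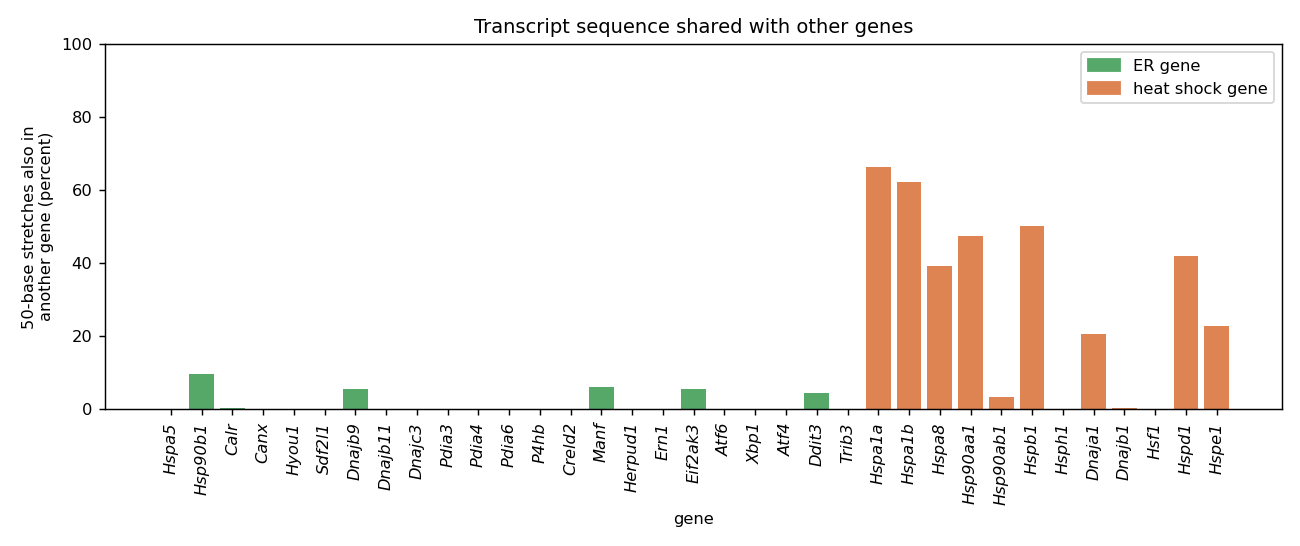
Percent of the 50-base stretches of each gene's transcripts that also occur in transcripts of another gene, ER genes in green and heat shock genes in orange. Only heat shock genes reach 20%, with *Hspa1a* at 66.3%.

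The rest of the pathway was read from lists of 137 further genes in the table, of which 20 were higher and 10 lower. Of the 102 with a mean of at least 500 normalized counts 17.6% were higher and 8.82% lower, at or below the 18.6 and 12.7% of all genes at that level, so the counts are no result about the lists as a whole. Single lists had at most 25 genes of that level, too few to read against these shares. In ER-associated degradation 0 of 17 were higher and 3 were lower in the limma fit, with 2 higher at an unadjusted p under 0.05. There edgeR and limma voom called 0 higher and 2 lower each, and DESeq2 called 1 and 3. *Selenos*, a selenoprotein of the degradation complex, went from 5735 ± 494 to 3294 ± 545 (-0.81, limma adjusted p = 0.000277), and *Syvn1*, the ligase HRD1, from 1355 ± 86.5 to 993 ± 213 (-0.47, adjusted p = 0.0389). *Syvn1* lost its call in 7 of the 12 fits that left out 1 sample, those without control replicate 1, 3, 4 or 6 or CNV d3 replicate 3, 5 or 6, with adjusted p of 0.0550 to 0.0786. The call was also lost with TMM, total reads, edgeR, limma voom, no variance trend, thinned reads and the replicate block. In both genes the CNV d3 samples lay below every control. Groups did not overlap in 3 of the 17, and in 2038 of all 27299 genes, hardly expressed ones included. Differences in the list were positive for 7 and negative for 10, and the 3 calls are no result about the group.

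Other ER folding and translocation genes gave 3 higher and 2 lower of 28. *Dnajc10*, an ER disulfide reductase, rose from 1556 ± 425 to 2811 ± 461 (0.89, limma adjusted p = 0.00415), *Ero1l*, the oxidase that recharges the isomerases, from 498 ± 220 to 978 ± 202 (1.07, adjusted p = 0.0168), and *Sec61b* of the translocon from 594 ± 122 to 866 ± 153 (0.55, adjusted p = 0.0440). *Dnajc1* (-0.63, adjusted p = 0.00590) and *Sec62* (-0.53, adjusted p = 0.0107) fell. *Ero1l* and *Sec61b* lost their calls in 7 and 8 of the 12 fits that left out 1 sample, with adjusted p of 0.0505 to 0.0673 and 0.0673 to 0.0908. Of the list 1 gene was higher without control replicate 6 or CNV d3 replicate 2, 3, 5 or 6, 2 were without control replicate 5, and DESeq2 called 5 higher and 5 lower. Of 11 regulators of the ATF6 and IRE1 arms 2 rose and 1 fell. *Rtcb*, the ligase that joins the *Xbp1* exons after IRE1 has cut, rose from 4976 ± 605 to 7844 ± 542 without overlap (0.66, adjusted p = 0.000232), *Mbtps1*, the protease that cuts ATF6, rose by 0.58 (adjusted p = 0.00717) and *Creb3* fell by 0.57 in log2 (adjusted p = 0.00569).

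Genes of the integrated stress response, many of them ATF4 targets, had 5 higher and 1 lower of 22. Of the 13 with a mean of at least 500 normalized counts 4 were higher and 1 lower. These are too few to read against the 18.6 and 12.7% of all genes at that level. *Psat1*, an enzyme of serine synthesis, rose from 546 ± 145 to 1661 ± 457 without overlap (1.604, limma adjusted p = 0.000260), and *Shmt2*, the mitochondrial serine hydroxymethyltransferase, by 0.86 (adjusted p = 0.00775). *Slc7a11*, the cystine transporter, was listed at 0 in 5 control samples and at 112 in the other, and ran from 37.2 to 169 in CNV d3 (adjusted p = 0.00546). *Slc3a2*, its heavy chain, had a difference of -0.28 (adjusted p = 0.0376), and the call was lost with TMM, total reads, edgeR, no variance trend and the replicate block, and in the 9 fits without control replicate 1, 3, 4 or 6 or CNV d3 replicate 2, 3, 4, 5 or 6 (adjusted p of 0.0624 to 0.0832 there). *Slc7a11* was not called by edgeR or DESeq2. ATF4 is governed mostly by translation, which these data do not measure, and its part in these values was not tested.

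Among 35 other cytosolic chaperones and cochaperones 5 rose and 3 fell. *Bag1* (1.40, limma adjusted p = 8.51e-06) and *Hspa4* (0.51, adjusted p = 0.00798), nucleotide exchange factors of HSP70, rose without overlap, and *Hspb6* rose from 49.99 ± 34.9 to 130 ± 41.3. *Bag4* (-0.87), *Dnajb4* (-0.84) and *Bag5* (-0.74) fell, with adjusted p of 0.00802, 0.00244 and 0.0205. *Hspb6* lost its call in 7 and *Bag5* in 5 of the 12 fits that left out 1 sample, with adjusted p of 0.0552 to 0.0829 and 0.0560 to 0.0700, and without CNV d3 replicate 2 or 3 the list had 3 higher and 2 lower. The cytosolic chaperonin TRiC and prefoldin had 4 higher of 14, *Tcp1* (0.66), *Cct2* (0.57) and *Cct4* (0.38) in front. Without CNV d3 replicate 3 or 5, 2 were higher, and with no variance trend 1, and *Tcp1* lost its call in 4 of 12 fits, those without control replicate 2 or CNV d3 replicate 3, 5 or 6 (adjusted p of 0.0531 to 0.0599). In the limma fit 0 were lower, also 0 at an unadjusted p and by edgeR, DESeq2 and limma voom. Of 10 mitochondrial chaperones and proteases *Lonp1* alone was called by limma, from 557 ± 84.0 to 988 ± 139 (0.83, adjusted p = 0.00142), and 0 were lower by limma and the other 3 tests, with 0 lower at an unadjusted p.

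Tissue dissociation was looked at through 16 immediate early genes, none of them among the 35. *Fos* was higher, from 0 to 133 in control and from 113 to 538 in CNV d3, while *Nfkbia* (-0.88), *Btg2* (-0.80) and *Klf6* (-0.57) were lower, so that 2 rose and 3 fell. Their summed level, which rests on the abundant ones, was 29224 to 36973 normalized counts in control and 21903 to 33173 in CNV d3. The mean log2 level of the 16, in which low genes weigh the same, went the other way, from 7.437, 8.014 and 8.631 as the lowest, median and highest to 8.59, 8.82 and 9.138, with overlap. *Fos* lost its call without control replicate 2 or CNV d3 replicates 1, 2, 3 or 6 (log2 differences of 4.03 to 4.75, limma adjusted p of 0.0536 to 0.0603), and with edgeR and DESeq2. Within each group of 6, this mean log2 level was set against *Hspa1a*, *Hspa1b*, *Dnajb1* and *Hspa5*, 8 relations in all. *Hspa5* in control had the highest Pearson r, 0.930 (exact permutation p = 0.0111, adjusted 0.0889), with Spearman rho 0.943 (p = 0.0167, adjusted 0.133, exact permutation) and r = 0.806 without the 2 samples farthest out. For *Dnajb1* in control r was 0.733 and rho 0.829 (exact permutation p = 0.0958 and 0.0583, adjusted 0.383 and 0.233). No relation passed the adjustment, and in CNV d3 r lay between 0.222 and 0.446 with adjusted p of 0.739 for all 4 by the exact permutation test. Whether handling time has a part in the *Dnajb1* or *Hspa5* values was not tested.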

How the data were processed

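RNA of FACS-sorted retinal microglia was amplified with the SMARTer Ultra Low v4 kit and sequenced as single reads of 50 cycles. The authors aligned reads with STAR 2.7.2b and counted them per Gencode M25 gene (GRCm38.p6) with featureCounts 1.6.4 at default settings, without strand, leaving out reads that map to several places or genes. Parts of a sample were merged and count as 1 sample. In the labels every control sample and CNV d3 replicate 4 had 2 parts, and the other CNV d3 samples had 1. The number of parts thus nearly follows the group, and its part in the differences was not tested. The deposited signal is each gene's read count divided by the sample's DESeq2 1.22.2 size factor, called normalized counts here. The table also holds the authors' group means, log2 fold changes and adjusted p-values, which were not used. Whole reads were recovered from the value of 1 read in each sample, and 100% of values were whole within 0.0001.

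The main test was limma 3.58.1 (variance trend) on log2(normalized count + 1), with Benjamini-Hochberg adjustment over 27299 genes and no filter. Fold changes are on this scale, which compresses low values and, where some samples are at 0, can exceed the ratio of the group means. Alternatives were edgeR 4.0.16, DESeq2 1.42.0 and limma voom on recovered reads, other scalings, pseudocounts and filters, thinned reads, no trend, a replicate block and each sample left out. The main limma fit, edgeR, DESeq2, limma voom and the replicate block were tested on simulated data, and the other alternatives were not. There limma recovered fewer of the small changes than edgeR or DESeq2, and the recovery asked of it was set on large changes after a stricter bar for small ones was missed. The gene lists and the members were chosen with earlier results of these data known. Named genes outside the 35 were up to 3 called genes per direction and list with the greatest change and a mean of at least 50 in a group, and the most abundant marker of each list. A few genes that this rule names are not reported here. Exon lengths and positions came from Gencode M21 on GRCm38. The labels do not say that samples came from separate animals, so p-values measure the spread between these samples. A planned search of protein ends was not run. Python 3.11.15 and SciPy 1.17.1 were used.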

Additional observations from a re-analysis of the deposited data

Results flagged for a closer look

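For each of the 35 genes in each group of 6 samples, 70 groups in all, Dixon's gap test at the 95% level marked a lowest or highest sample that stood far from the other 5. For normal values chance alone marks about 1 in 20 groups, and 9 were marked. The values of *Trib3*, *Hspa1a* and *Hspb1* are near the floor and not normal, and genes of the same samples are not independent. The 9 are therefore not read against that rate. In CNV d3, replicate 3 was high for *Calr*, at 30840 normalized counts, and for *Hspa1a*, at 38.48, and replicate 6 was high for *Trib3*, at 245.9. In control, replicate 3 was high for *Creld2*, at 1833, and for *Trib3*, at 129.5. Control replicate 2 was low for *Dnajb9*, at 879.8, and high for *Pdia4*, at 10340. Control replicate 5 was high for *Pdia3*, at 46450, and control replicate 1 for *Hspb1*, at 8.588. *Calr* kept its call without CNV d3 replicate 3. Without control replicate 2 the adjusted p of *Dnajb9* was 0.00762.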

How the results depend on the processing

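Under 24 alternatives each, *Hsp90b1*, *Calr*, *Herpud1*, *Xbp1*, *Atf4*, *Dnajb1* and *Hspd1* kept direction and call, and *Hsp90aa1* lost its call only without the variance trend. *Pdia3* kept its call in 15, *Dnajb9* in 11 and *Hspa5* in 9 of 24. Of those not called in the main fit, *Dnajb11* was called in 8, *Hspe1* in 5, *P4hb* in 3, *Hsf1* in 2 and *Canx* in 1 of 24, and *Hspb1* in 1 of 22. DESeq2 called 15 of the 35 genes, 9 higher and 6 lower, and 17.1% of all genes. Of 836 values of single genes, 756 kept direction and side of the threshold, 38 lost the call, 20 gained it and 22 changed sign. The replicate number as a block, where same-numbered samples had deviations correlated by -0.0115 to 0.0456 and only replicate 3 correlated best with its own number, gave 2 ER genes higher instead of 4, without *Hspa5* and *Pdia3*, and also lost *Dnajb9*. It changed no other call among the 35. ER genes higher numbered 2 with a pseudocount of 5, 7 with limma voom, 2 with no variance trend, 2 at an adjusted p under 0.01 and 0 with a log2 change above 1.5, where ER genes lower and heat shock genes in either direction were also 0. At an adjusted p under 0.01 heat shock genes were 1 higher and 0 lower. With at least 10 normalized counts in at least 6 samples, and with DESeq2, 2 heat shock genes were lower, *Dnajb1* and *Hsf1*, and with no trend 1 was higher. Their median log2 difference of 0.46 over all 12, in which 3 genes near the floor weigh in, became 0.29 with edgeR and 0.28 with DESeq2 and was 0.17 over the 9 with a mean of at least 500. All genes lower were 2170 with DESeq2, 635 under 0.01 and 293 above the fold, and all genes higher 1183 and 1068 in the last 2. The other pathway lists had 16 lower with DESeq2 and 13 higher and 6 lower with no trend.

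Leaving out 1 sample gave 2 to 4 ER genes higher and 3 to 4 lower, 2 to 3 heat shock genes higher and 1 to 1 lower, 1737 to 2319 genes higher and 1022 to 1455 lower among all, 13 to 24 and 7 to 11 in the other lists, and medians of 0.082 to 0.163 for ER and 0.29 to 0.55 for heat shock genes. Signs changed only for genes near 0 or near the floor. *Pdia4* was 0.0058 by total reads. *Hspa1b* was -0.41 by edgeR, -0.42 by DESeq2 and -0.20 without control replicate 2 or 6, in a range up to 0.97 without other samples. *Hspa8* was 0.0072 with TMM, 0.018 by total reads, 0.022 by edgeR, 0.0079 by DESeq2, 0.0046 by voom and 0.0040 to 0.043 in 7 fits without 1 sample, the lowest such fit giving -0.10. *Dnaja1* was -0.073 to -0.0005 in 5 such fits and up to 0.11 in the others. The Pearson r of *Hspa1a* with the immediate early genes in control turned from 0.287 to -0.737 without the 2 farthest samples. The causes were not tested. Depth limits *Hspa1a*, *Hspa1b* and *Hspb1*: 1 read was worth 1.00 to 1.99 normalized counts in control and 0.739 to 0.895 in CNV d3, and other scalings moved the median of expressed genes by at most 0.0262 in log2.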

Other observations

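The ERSE is rare enough to list its other carriers. Outside the 35 genes, 30 genes hold it in a RefSeq promoter, 16 of them are in the table and 5 have a mean of at least 50 normalized counts. In limma *Hnrnpa3*, a splicing factor, rose from 437 ± 97.0 to 814 ± 274 (0.85, adjusted p = 0.0249), *Adcy3*, an adenylyl cyclase, rose by 0.79 (adjusted p = 0.0339), and *Syvn1*, described above as a gene of ER-associated degradation, was lower (-0.47, adjusted p = 0.0389). The shorter ERSE-II was in 10 further genes, 8 of them in the table. *Nucb1*, which codes for the Golgi calcium-binding protein nucleobindin, was higher (0.44, adjusted p = 0.00608), and *Rbm39* (-0.41, adjusted p = 0.00717) and *Rcl1* (-0.69, adjusted p = 0.0159) were lower. Of 87 further genes in the table with an HSE, 51 have a mean of at least 50, and of these 17.6% were higher and 11.8% lower, beside 14.9 and 10.7% of all genes at that level. *Sec62*, one of those lower, is also among the ER translocation genes that fell. Of the ERSE carriers at that level 2 of 5 were higher and 1 lower, and of the ERSE-II carriers 1 of 7 was higher and 2 lower. These are too few to read against the 14.9 and 10.7% of all genes. The carriers of all 3 elements were listed after the values of the 35 genes were seen, and no test was made over them.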
